A study of Glycine max with 10 samples.

Results

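Whole developing seeds of the soybean cultivar Evans at 50 days after flowering (DAF) were compared with seeds at 45 DAF, the last interval sampled as the seed approaches drying. The comparison used the 2 arrays labelled 50 DAF and the 2 labelled 45 DAF, which are 4 of the 10 arrays of a time course that also holds 2 arrays each at 25, 30 and 40 DAF. All groups were untreated field-grown plants of a single genotype, so that age was the labelled difference between groups. Each replicate pooled pods of several plants and each RNA extract pooled a few seeds, the fewest at 45 DAF per the study's methods, so that the replicates measure the spread between pools and not between single seeds. RNA was hybridised to the Affymetrix Soybean Genome Array, whose 37593 probe sets each report a signal, the brightness of a set of short probes for 1 transcript.

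During late maturation a legume seed stops importing reserves, loses chlorophyll and then loses water. Abscisic acid acts through 2C-type protein phosphatases and SnRK2 kinases on transcription factors that switch on protective genes. Late embryogenesis abundant (LEA) proteins are hydrophilic proteins that accumulate in cells that survive drying, small heat shock proteins are chaperones that hold unfolding proteins, and galactinol synthase starts the synthesis of the raffinose family of sugars. Antioxidant enzymes, glutathione transferases and glyoxalases detoxify reactive by-products that accumulate when metabolism slows.

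The scale of the 50 DAF arrays differed from that of the others. The mean signal was alike on all arrays, between 1344 and 1426, whereas the median was 221 and 223 on the 50 DAF arrays and 304 to 325 on the other 8. Signals under 50, where a probe set is hard to tell from background, made up 25.0% and 26.5% of probe sets at 50 DAF and 17.4% to 20.3% elsewhere. Centring each array on its median therefore added 0.50 on the log2 scale to every change from 45 to 50 DAF. A call was kept only where limma gave an adjusted p under 0.05 in the same direction both on centred signals and on signals as deposited. Changes are log2 values on the centred scale unless stated, and the change as deposited is 0.50 lower for every probe set.

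**Figure D1:**
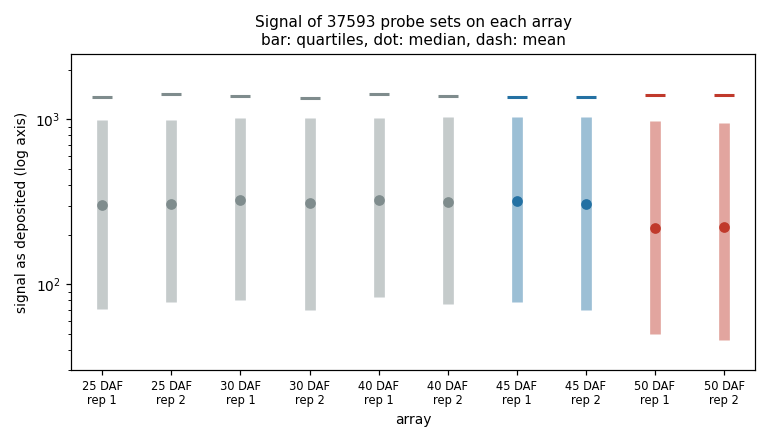
Signal of the 37593 probe sets on each of the 10 arrays on a log axis, with bars from the lower to the upper quartile, dots at the median and dashes at the mean. The medians of the 50 DAF arrays (221 and 223) lie below those of the other 8 arrays (304 to 325), while the means are alike.

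The 45 DAF arrays also differed from each other. The Pearson correlation of log2 signal over 37593 probe sets was 0.880 between the 45 DAF replicates, 0.921 between those at 40 DAF and 0.919 between those at 50 DAF. Replicate 1 at 45 DAF correlated at 0.916 and 0.927 with the 40 DAF arrays and at 0.765 and 0.774 with the 50 DAF arrays. Replicate 2 correlated at 0.892 and 0.896 with the 40 DAF arrays and at 0.856 and 0.866 with the 50 DAF arrays. On the path from the 40 DAF mean to the 50 DAF mean, a regression over all probe sets placed replicate 1 at 0.0399 of the distance and replicate 2 at 0.375. The median SD between replicates was 0.42 on the log2 scale at 45 DAF, against 0.23 to 0.26 at the other ages. Results are therefore given with and without each 45 DAF array, and the part of this difference in each result was not tested. A fit without 1 of the 45 DAF arrays also takes this widest pair out of the estimate of spread. A call can then hold although the change is smaller. The change of the glutamine synthetase GS1alpha, for example, was 5.30 with all arrays and 2.36 without 45 DAF replicate 1, and its call held. A call that held without a 45 DAF array thus does not show an unaltered change. Most rises and most falls called under both scalings, in the stress lists too, were lost in at least 1 fit without a 45 or 50 DAF array. Named genes whose calls held without each of these arrays are therefore not typical of the calls.

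At 50 DAF 3577 probe sets (9.52%) were higher and 4749 (12.6%) were lower than at 45 DAF under both scalings, 22.1% of all probe sets together. On centred signals alone 6994 were higher and 4749 lower, and as deposited 3577 were higher and 7845 lower (30.4% together). The scalings differ by the same 0.50 for every probe set. The rises under both scalings were therefore those called as deposited, and the falls those called on centred signals. Agreement of the scalings is thus not separate evidence, and the shift left little room for calls in opposite directions, of which there were none. Another 3417 were higher only after centring and 3096 were lower only as deposited. Of the 1882 probe sets with an informative gene name, 206 rose (10.9%) and 348 fell (18.5%), 29.4% together. Of the probe sets that rose, 87.6% had a higher centred signal in replicate 2 than in replicate 1 at 45 DAF, against 49.7% at 40 DAF and 51.7% at 50 DAF. Without replicate 1 at 45 DAF, 1991 rose and 2957 fell. Without replicate 2, 4863 rose and 5569 fell. Without 50 DAF replicate 1 the numbers were 1092 and 2908, and without 50 DAF replicate 2 they were 1879 and 3736. The calls that held without either 45 DAF array were 1684 rises and 2670 falls.

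The 19 stress lists held 794 probe sets, of which 142 rose (17.9%) and 100 fell (12.6%) under both scalings, beside 9.52% and 12.6% of all probe sets. The median change was 0.52 after centring, against 0.19 over all probe sets, and 0.02 as deposited, against -0.31. The 714 members found by gene symbol included 103 rises (14.4%) and 94 falls (13.2%). The other members carry only a family name from the study's own table of changed transcripts, a table drawn from these arrays, and are not independent evidence of direction. The stress rises numbered 84 without 45 DAF replicate 1, 192 without 45 DAF replicate 2, 54 without 50 DAF replicate 1 and 74 without 50 DAF replicate 2. The stress falls numbered 67, 108, 55 and 81 in the same order. The shares of rises in a list depend on these members: heat shock proteins had 45.7% rises with them and 38.9% by symbol, and calcium-type kinases 31.4% and 0.0%, while the 41 members of the NAC list had 41.5%.

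**Figure D2:**
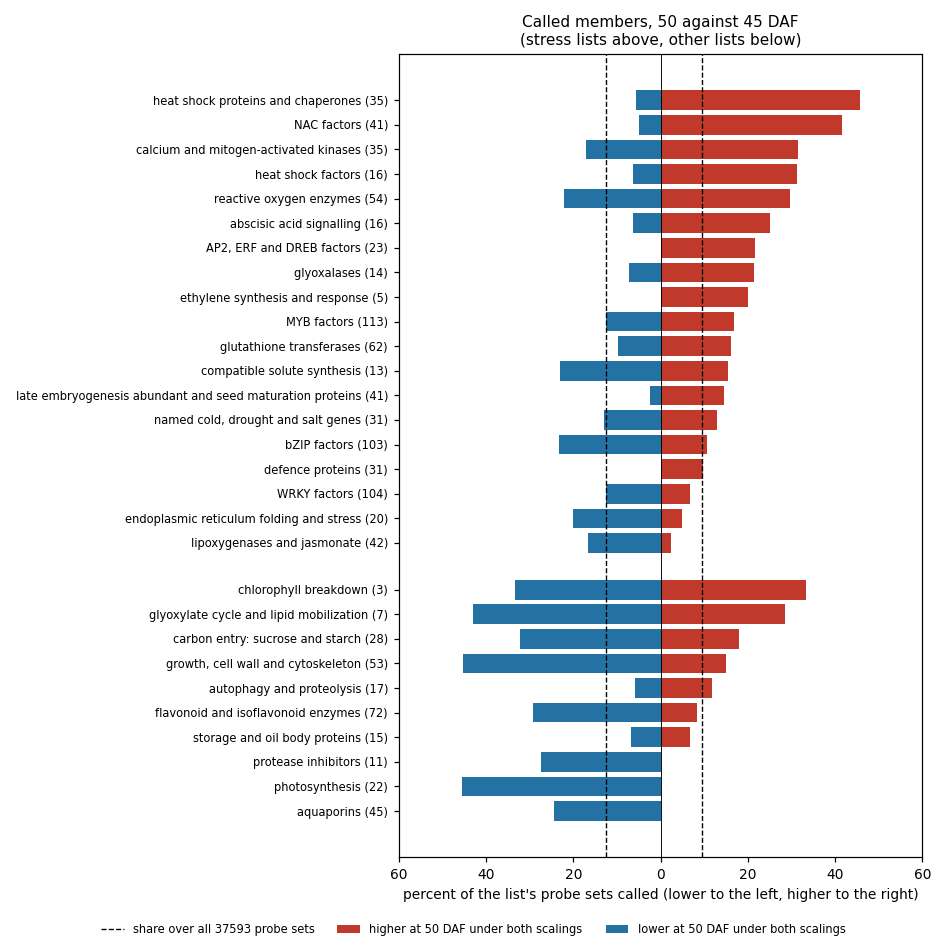
Percent of each list's probe sets called at 50 against 45 DAF under both scalings, lower to the left and higher to the right, with the number of probe sets in brackets and dashed lines at the shares over all 37593 probe sets (9.52% higher, 12.6% lower). The bars include members known by family name only. Heat shock proteins (45.7%, or 38.9% by symbol) and NAC factors (41.5%) have the longest bars to the right. Photosynthesis (45.5%, or 33.3% by symbol) and growth genes (45.3%, or 51.3% by symbol) have the longest to the left.

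The abscisic acid list had 4 rises (25.0%) and 1 fall (6.25%) among 16 probe sets, beside 9.52% and 12.6% of all probe sets. Its median change was 0.72. The 7 members found by symbol had 1 rise and 1 fall, and the other rises came from family names in the study's table. The list's rises included 2C-type protein phosphatases, the negative regulators that abscisic acid receptors inhibit. The phosphatase matched to Arabidopsis AT5G59220, known there as HAI1, had signals of 221 and 469 at 45 DAF and 4619.7 and 4363 at 50 DAF, a change of 4.30 ± 0.45 (SE) with adjusted p = 0.000449. The phosphatase matched to AT1G07430, known as HAI2, had 3143 and 5315 at 45 DAF and 16297 and 14839.7 at 50 DAF, a change of 2.43 ± 0.25 (SE) with adjusted p = 0.000395. In both genes every 50 DAF array lay far above every 45 DAF array, and the calls held without each of the 4 arrays. SPK-4, a soybean SnRK2-type kinase, had 316 and 1071 at 45 DAF and 2946 and 2866 at 50 DAF, a change of 2.82 ± 0.50 (SE), and lost its call only without 50 DAF replicate 1 (adjusted p = 0.0705).

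The list of calcium-dependent and mitogen-activated kinases had 11 rises (31.4%) and 6 falls (17.1%) among 35 probe sets. Of all probe sets 9.52% rose and 12.6% fell. All 11 rises came from family names in the study's table, and the 15 members found by symbol had 0 rises and 2 falls. These family names are broad and also took in the SnRK2-type kinases below, so the counts do not describe calcium-dependent kinases alone. The kinase matched to AT5G25110, in Arabidopsis the calcium-sensor-regulated kinase CIPK25, was among the largest rises of all named genes. Its signals were 79.8 and 231 at 45 DAF and 4457 and 5907 at 50 DAF, a change of 5.74 ± 0.60 (SE) with adjusted p = 0.000454. Another probe set matched to the same locus rose less, from 1053 and 594 to 2371 and 1566 (1.785 ± 0.215 (SE)). Its 50 DAF signals lay below those at 25 and 30 DAF (3826 to 5635). The kinases matched to AT1G60940 and AT1G10940, SnRK2 members that respond to osmotic stress in Arabidopsis, had similar signals in the 45 DAF replicates. The first had 3191 and 2964 at 45 DAF and 9976 and 7574 at 50 DAF, a change of 2.0 ± 0.18 (SE) with adjusted p = 0.000286. The second had 3168 and 2420.4 at 45 DAF and 8269 and 6713 at 50 DAF, a change of 1.93 ± 0.18 (SE) with adjusted p = 0.000286. All these calls held without each of the 4 arrays. The list's rises numbered 7 without 50 DAF replicate 2 and its falls 2 without 50 DAF replicate 1.

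Among transcription factors, the NAC family had many more rises than falls, with 17 rises (41.5%) and 2 falls (4.88%) among 41 probe sets of 20 genes. Over all probe sets 9.52% rose and 12.6% fell. The median change of the NAC list was 2.20. NAC proteins are plant-specific factors known for roles in senescence and in drought responses. NAC3 had signals of 444 and 2448 at 45 DAF and 7092 and 10048 at 50 DAF, a change of 3.52 ± 0.57 (SE) with adjusted p = 0.00237. NAC27 had 262 and 1979.8 at 45 DAF and 6352 and 8874 at 50 DAF, NAC69 had 93.8 and 264 at 45 DAF and 1814 and 2812 at 50 DAF, and their changes were 3.88 and 4.34. In these 3 genes replicate 2 at 45 DAF was well above replicate 1, and both 50 DAF arrays exceeded it. GmNAC109, matched to AT1G01720, had 1662 and 3045 at 45 DAF and 9952 and 11604 at 50 DAF, a change of 2.76 ± 0.29 (SE) with adjusted p = 0.000438. NAC14 went the other way, from 6761 and 6505 to 1346 and 1752, a change of -1.61 ± 0.24 (SE) with adjusted p = 0.00183, and its 45 DAF replicates were alike. The calls of these 5 genes held without each of the 4 arrays, and the count of NAC rises was 11 without 45 DAF replicate 1, 21 without replicate 2 and 7 without 50 DAF replicate 1.

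AP2, ERF and DREB factors, which include activators of drought and cold genes, had 5 rises (21.7%) and 0 falls among 23 probe sets. Over all probe sets 9.52% rose and 12.6% fell. DREB2A2 had 163 and 2203 at 45 DAF and 14929 and 17516 at 50 DAF, a change of 5.25 ± 0.93 (SE) with adjusted p = 0.00335, and its call held without each of the 4 arrays. DREB1 had 2307 and 8045 at 45 DAF and 14728 and 16525 at 50 DAF, a change of 2.36 ± 0.45 (SE), but lost its call without either 50 DAF array (adjusted p = 0.0861 and 0.0525). The list's rises numbered 2 without 45 DAF replicate 1 and 1 without each 50 DAF array in turn. EBP, an ethylene-response-element binding protein of the same superfamily that the symbol search did not place in the list, had 494 and 274 at 45 DAF and 14519 and 13032 at 50 DAF. Its change was 5.72 ± 0.47 (SE) with adjusted p = 0.000215, it was the replicate 2 array that was lower at 45 DAF, and its call held without each of the 4 arrays. The ethylene receptor ETR2 rose from 1813 and 1117 to 4034 and 4997, a change of 2.16 ± 0.24 (SE) with adjusted p = 0.000595, and was the 1 call among 5 probe sets of ethylene synthesis and response.

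WRKY factors, known for defence and senescence roles, were split, with 7 rises (6.73%) and 13 falls (12.5%) among 104 probe sets, shares near or below those of all probe sets. WRKY6 had 21 and 330.0 at 45 DAF and 4169 and 5243 at 50 DAF, a change of 6.31 ± 1.47 (SE), and WRKY53 had 12.4 and 289 at 45 DAF and 1189 and 2136 at 50 DAF, a change of 5.23 ± 1.3 (SE). Both calls were lost without 45 DAF replicate 1 (adjusted p = 0.112 and 0.165) and without each 50 DAF array (0.0885 and 0.0826 for WRKY6, 0.131 and 0.0888 for WRKY53). The list had 1 rise without 45 DAF replicate 1, 13 without replicate 2, and 0 and 1 without 50 DAF replicates 1 and 2. WRKY22 fell from 1907 and 1210.5 to 247 and 202, a change of -2.27 ± 0.23 (SE) with adjusted p = 0.000372. WRKY51 fell from 834 and 928 to 132 and 128, a change of -2.26 ± 0.31 (SE). Both held without each of the 4 arrays, and the list's falls numbered 7 to 11 without 1 of them.

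MYB factors had 19 rises (16.8%) and 14 falls (12.4%) among 113 probe sets, beside 9.52% and 12.6% of all probe sets. MYB92 rose from 1502 and 3863 to 12175 and 11709.5 (2.81 ± 0.35 (SE), adjusted p = 0.000857), and MYB172 fell from 524 and 180.1 to 3.3 and 1.5 (-6.60 ± 0.51 (SE), adjusted p = 0.000176). The 50 DAF signals of MYB172 were under 50, and its change was -2.37 when 50 was added to every signal. The rises of the list numbered 8 without 45 DAF replicate 1, 6 without 50 DAF replicate 1 and 5 without 50 DAF replicate 2, and its falls 8 without 45 DAF replicate 1. bZIP factors, a family that includes abscisic acid response factors, had 11 rises (10.7%) and 24 falls (23.3%) among 103. BZIP124 fell from 9614 and 10384 to 1317 and 1844 (-2.18 ± 0.21 (SE), adjusted p = 0.000352), and BZIP70 from 3962 and 2279 to 266 and 304 (-2.90 ± 0.27 (SE)). BZIP95, matched to AT5G06950, rose from 2090.3 and 3238 to 7051 and 7175 (1.95 ± 0.23 (SE)). The 45 DAF replicates of BZIP124 were nearly equal, and the calls of these 5 genes held without each of the 4 arrays. The bZIP falls numbered 14 without 45 DAF replicate 1 and 12 without 50 DAF replicate 1, and the rises 6 and 7 without 50 DAF replicates 1 and 2.

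Heat shock proteins and chaperones had 16 rises (45.7%) and 2 falls (5.71%) among 35 probe sets, beside 9.52% and 12.6% of all probe sets. The median change of the list was 1.29, and its members found by symbol had 7 rises (38.9%) and 1 fall of 18. HSP17.5-E, a cytosolic small heat shock protein, had 87.4 and 524 at 45 DAF and 5788 and 6673 at 50 DAF, a change of 5.36 ± 0.73 (SE) with adjusted p = 0.00122. The small heat shock protein matched to AT2G29500 had 3296 and 7173 at 45 DAF and 33142 and 31049.7 at 50 DAF, a change of 3.22 ± 0.39 (SE) with adjusted p = 0.000774. The DnaJ-type co-chaperone matched to AT2G33735 rose from 522 and 829 to 2412 and 2305 (2.34 ± 0.28 (SE)). These 3 calls held without each of the 4 arrays. HSP90A1 had 11.7 and 410.5 at 45 DAF and 1833 and 1486 at 50 DAF, a change of 5.07 ± 1.21 (SE), and lost its call without 50 DAF replicate 1 (adjusted p = 0.139) and replicate 2 (0.0525). The HSP70 matched to AT2G32120 rose from 2323 and 4399 to 8399 and 8533 (1.91 ± 0.27 (SE)), with adjusted p = 0.0521 without 50 DAF replicate 1. The list's rises numbered 8 without 45 DAF replicate 1, 17 without replicate 2, and 5 and 6 without 50 DAF replicates 1 and 2.

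Heat shock factors, which activate chaperone genes, had 5 rises (31.2%) and 1 fall (6.25%) among 16 probe sets. Over all probe sets these shares were 9.52% and 12.6%. HSF-03 rose from 1473 and 2103 to 3573 and 4402, a change of 1.67 ± 0.23 (SE) with adjusted p = 0.00116, and held without each of the 4 arrays. HSF-01 rose from 4852 and 3466 to 7929 and 7355 (1.40 ± 0.20 (SE)), and lost its call without 50 DAF replicate 1 (0.0804) or replicate 2 (0.055). HSF-33 rose from 333 and 357 to 667 and 656 (1.44 ± 0.29 (SE)), a small and even difference. As deposited its adjusted p was 0.0348, and leaving out any array other than 45 DAF replicate 2 raised it above 0.05, to 0.155 at most. The list's rises numbered 2 without 45 DAF replicate 1, 8 without replicate 2, and 1 without each 50 DAF array in turn.

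**Figure D3:**
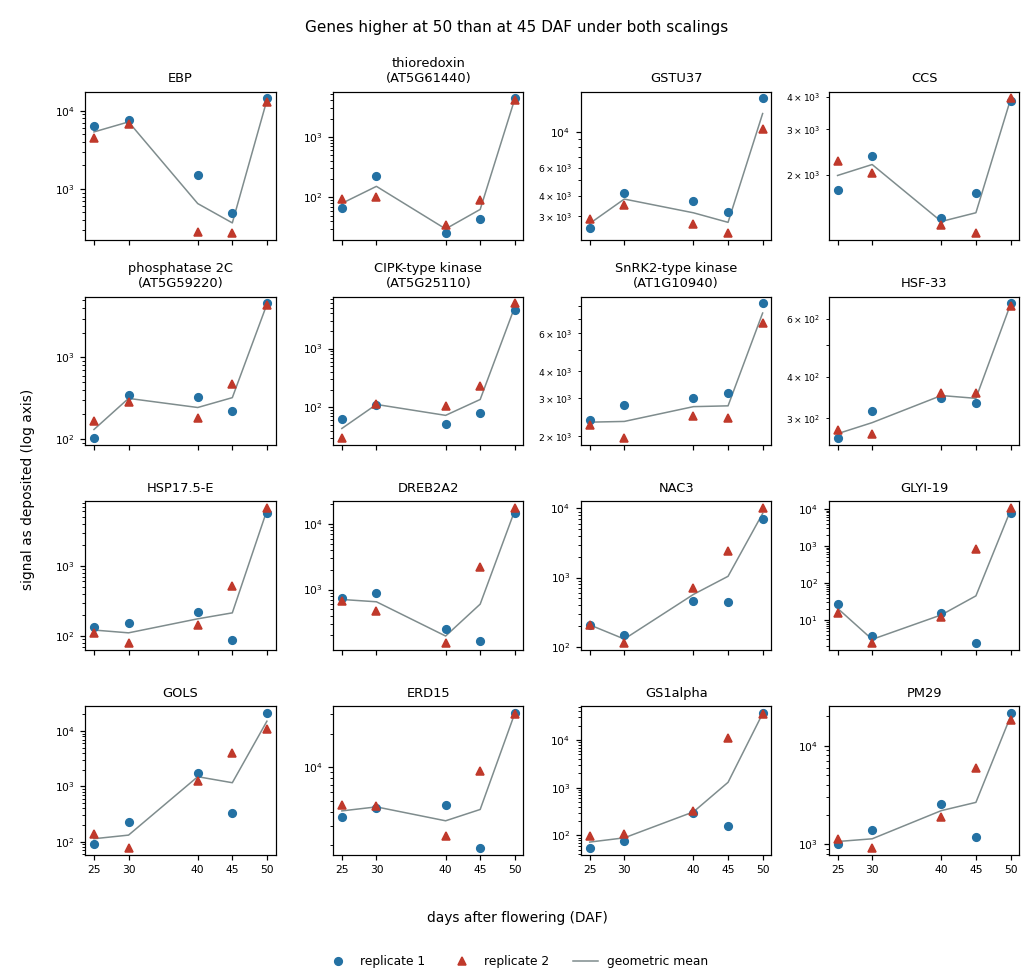
Signal as deposited on a log axis against age for 16 genes higher at 50 than at 45 DAF under both scalings, circles for replicate 1, triangles for replicate 2 and a line through the geometric means. In the upper rows (for example EBP, 494 and 274 at 45 DAF) the 45 DAF replicates lie closer together, while from HSP17.5-E to PM29 replicate 2 lies well above replicate 1 (for example GS1alpha, 154 and 11013).

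The list of reactive oxygen enzymes, which also holds ferritins, had 16 rises (29.6%) and 12 falls (22.2%) among 54 probe sets. Of all probe sets 9.52% rose and 12.6% fell. The list's members found by symbol had 7 rises and 11 falls of 38. The thioredoxin matched to AT5G61440 had 44.6 and 89.9 at 45 DAF and 4323 and 4097 at 50 DAF, a change of 6.55 ± 0.56 (SE) with adjusted p = 0.000246. CCS, the chaperone that loads copper into superoxide dismutase, rose from 1705 and 1189 to 3872 and 3955, a change of 1.96 ± 0.22 (SE) with adjusted p = 0.000621. The methionine sulfoxide reductase matched to AT4G25130, which repairs oxidised methionine, rose from 1365 and 1663 to 3532 and 4119.7 (1.84 ± 0.21 (SE)). Ferritins are the iron-storage proteins of plastids and not enzymes of reactive oxygen metabolism. Several of the list's falls were probe sets of 1 ferritin gene, SFERH-2, so that the share of falls does not describe the enzymes alone. SFERH-2 fell from 21880.2 and 11159.8 to 147 and 186, a change of -6.06 ± 0.28 (SE) with adjusted p = 3.7e-05, and the ferritin matched to AT2G40300 from 1836 and 1903 to 137 and 94.5 (-3.54 ± 0.27 (SE)). All 5 calls held without each of the 4 arrays. The rises of the list numbered 8 without 50 DAF replicate 1 and 11 to 15 without each other one of the 4 arrays.

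Glutathione transferases, which conjugate glutathione to reactive compounds, had 10 rises and 6 falls among 62 probe sets. GSTU37 rose from 3199.7 and 2367 to 16134 and 10443, a change of 2.74 ± 0.22 (SE) with adjusted p = 0.000201. GSTU47 rose from 229.7 and 813 to 3676 and 4743 (3.77 ± 0.42 (SE)), and GSTU3 fell from 2887 and 1045 to 28.4 and 112 (-4.44 ± 0.65 (SE)). These 3 calls held without each of the 4 arrays. GSTU62 rose from 12.3 and 395 to 2649.8 and 3201 (5.89 ± 1.19 (SE)), and its adjusted p was 0.0598 without 45 DAF replicate 1 and 0.103 without 50 DAF replicate 1. The rises of the list numbered 6 without 45 DAF replicate 1 and 4 without 50 DAF replicate 1, and the falls 3 without 45 DAF replicate 1.

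Glyoxalases, which clear methylglyoxal, had 3 rises (21.4%) and 1 fall (7.14%) among 14 probe sets, beside 9.52% and 12.6% of all probe sets. GLYI-19 had a change of 8.17 ± 1.98 (SE) with adjusted p = 0.0134. Its signals were 2.4 and 832 at 45 DAF and 7881 and 10425 at 50 DAF, so that replicate 1 at 45 DAF was at background and replicate 2 was not. The change was 12.60 without 45 DAF replicate 2 and 3.74 without replicate 1, and 5.83 when 50 was added to every signal. The call was lost without 50 DAF replicate 1 (adjusted p = 0.121) and replicate 2 (0.0657). GLXI rose from 1976 and 3064 to 6036 and 7454, a change of 1.95 ± 0.20 (SE) with adjusted p = 0.000454, and held without each of the 4 arrays. The list had 1 rise without each 50 DAF array in turn and 0 falls without 45 DAF replicate 1 or 50 DAF replicate 1.

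LEA and seed maturation proteins had 41 probe sets of 33 genes. Of these, 6 rose (14.6%) and 1 fell (2.44%) under both scalings, beside 9.52% and 12.6% of all probe sets. Another 22 were higher after centring only. The median change was 1.29 centred and 0.79 as deposited, against 0.19 and -0.31 over all probe sets. Their signals were already high at 45 DAF, where 30 of the 41 had a mean signal above 20000, beside 341 of 37593 over the array. In the 22 that were higher only after centring, the median mean signal was 29580 at 45 DAF and 56710 at 50 DAF. The highest signals on the 50 DAF arrays were 87663 and 72943. PM29 rose most of those named, from 1194 and 5938 to 21354 and 18249, a change of 3.39 ± 0.59 (SE) with adjusted p = 0.0033. Its adjusted p was 0.0597 without 50 DAF replicate 1. PM1 had 16796 and 34945 at 45 DAF and 61164 and 51355 at 50 DAF (1.71 ± 0.37 (SE)) and PM40 had 15329 and 27855 at 45 DAF and 38107 and 42244 at 50 DAF (1.46 ± 0.30 (SE)). Both lost the call without 45 DAF replicate 1 (0.201 and 0.261), without 50 DAF replicate 1 (0.178 and 0.141), without 50 DAF replicate 2 (0.088 and 0.159) and without either 40 DAF array (at most 0.0513 and 0.0629). The LEA-related protein matched to AT3G62580 had even 45 DAF replicates, 8075 and 8197 at 45 DAF and 16469 and 17614 at 50 DAF, a change of 1.57 ± 0.19 (SE), and held without each of the 4 arrays.

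The calls of several abundant maturation genes rested on the scaling, while their direction did not. SLE2, an Em-type group 1 LEA protein, had 11086 and 48955 at 45 DAF and 59385 and 57610.2 at 50 DAF, a change of 1.83 centred (adjusted p = 0.0389) and 1.33 as deposited (0.109). MAT1 had 4456 and 53524 at 45 DAF and 74579 and 64164 at 50 DAF, with 2.66 (0.024) and 2.16 (0.0509). PM24 had 6400.3 and 45879 at 45 DAF and 63394 and 58648 at 50 DAF, with 2.33 (0.0403) and 1.83 (0.0897). In these 3 genes replicate 2 at 45 DAF was close to the 50 DAF level and replicate 1 was several times lower. The dehydrin PM12 had 53476 and 57007 at 45 DAF and 64908 and 59241 at 50 DAF, with 0.67 and 0.17, and LEA5 had 44638 and 62364 at 45 DAF and 73771 and 63926 at 50 DAF, with 0.88 and 0.38. PM13, matched to the caleosin locus AT4G26740, had 1.21 and 0.71, PM41 had 1.43 and 0.93, PM22 had 1.33 and 0.83, and PM9 had 0.93 and 0.43. All 9 passed the threshold only after centring. Without 45 DAF replicate 2, 7 of the 9 passed under both scalings, the exceptions being LEA5 and PM12, and the list then had 27 rises. Without 45 DAF replicate 1 it had 2, and without 50 DAF replicates 1 and 2 it had 1 and 2. The lipoxygenase LOX3 was the named stress gene whose sign did turn, from 66697 and 66063 to 55741 and 53391, with 0.22 centred and -0.28 as deposited, neither past the threshold (adjusted p = 0.512 and 0.412).

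**Figure D4:**
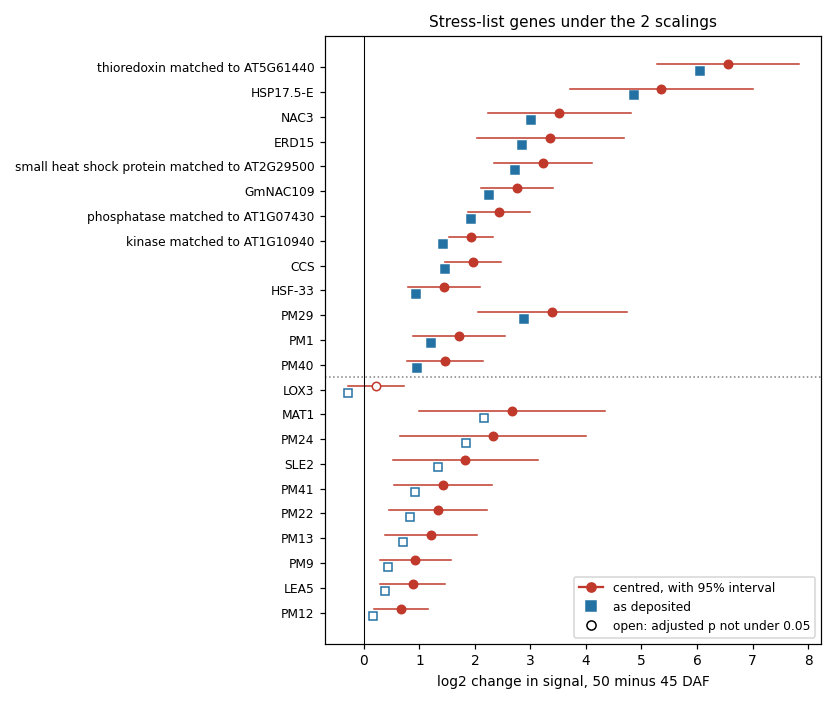
Log2 change from 45 to 50 DAF of 23 stress-list genes, circles for centred signals with 95% intervals of the limma fit and squares for signals as deposited, filled where the adjusted p was under 0.05. Above the dotted line both symbols are filled and to the right of 0; below it the maturation genes have open squares, and LOX3 lies on both sides of 0 (0.22 and -0.28).

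Genes of compatible solutes and of named cold, drought and salt responses were called in both directions. The solute list had 2 rises and 3 falls of 13, and the named list 4 rises and 4 falls of 31 (12.9% each), shares near those of all probe sets (9.52% and 12.6%). GOLS, galactinol synthase, had 336 and 4039.8 at 45 DAF and 20979 and 10786 at 50 DAF, a change of 4.19 ± 0.98 (SE) with adjusted p = 0.0115, and 0.0608 without 45 DAF replicate 1 and 0.157 without 50 DAF replicate 1. ERD15, named for early response to dehydration, had 1903 and 9242 at 45 DAF and 30447 and 30228 at 50 DAF, a change of 3.35 ± 0.58 (SE) with adjusted p = 0.00321, and 0.056 without 50 DAF replicate 1. SRC2, a cold-regulated gene, rose from 1013 and 2259 to 6965 and 5746 (2.56 ± 0.45 (SE)), with adjusted p = 0.0699 without 50 DAF replicate 1. The HVA22-type protein matched to AT4G36720 rose from 3545 and 5262 to 8971 and 9895 (1.62 ± 0.20 (SE)). NHX1, a sodium and proton antiporter, fell from 4466 and 2486 to 654 and 823 (-1.68 ± 0.26 (SE)). The calls of the last 2 genes held without each of the 4 arrays. Without 45 DAF replicate 2 the named list had 9 rises, and without 50 DAF replicate 1 it had 1 rise and 1 fall. The solute list had 0 rises without 45 DAF replicate 1 or 50 DAF replicate 1.

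The list of lipoxygenases and jasmonate genes and that of folding enzymes of the endoplasmic reticulum had more falls than rises. Lipoxygenases and jasmonate genes had 1 rise (2.38%) and 7 falls (16.7%) of 42, beside 9.52% and 12.6% of all probe sets. Among probe sets with an informative name 18.5% fell. LOX2, an abundant seed lipoxygenase, fell from 71018 and 62769 to 16635 and 14755, a change of -1.59 ± 0.24 (SE) with adjusted p = 0.00168, and AOC3, an allene oxide cyclase, from 605 and 157 to 19.7 and 34.4 (-3.06 ± 0.54 (SE)). The 50 DAF signals of AOC3 were under 50, and its change was -1.84 when 50 was added to every signal. COI1, the jasmonate receptor, is not in the list and was added after its values were seen. Of its 6 probe sets 3 rose and 3 were not called, and the one with the lowest adjusted p rose from 439 and 1069 to 10302 and 10964, a change of 4.46 ± 0.33 (SE) with adjusted p = 0.000159, and held without each of the 4 arrays. The folding list had 1 rise and 4 falls of 20, with 9 falls without 45 DAF replicate 2 and 2 without 50 DAF replicate 1. PDIL-1, a protein disulfide isomerase, fell from 30354 and 6875 to 1583 and 1030.3, a change of -3.0 ± 0.50 (SE) with adjusted p = 0.00259, and PDIL-2 from 1304 and 564 to 174 and 150.3 (-1.91 ± 0.39 (SE)). The calls of LOX2, AOC3, PDIL-1 and PDIL-2 held without each of the 4 arrays. Defence proteins had 3 rises (9.68%) and 0 falls of 31, and the 28 members found by symbol had 1 rise. The list had 6 rises without 45 DAF replicate 2, 1 without 45 DAF replicate 1 or 50 DAF replicate 2 and 0 without 50 DAF replicate 1. WIN, a wound-induced protein matched to AT3G04720, rose from 6645 and 9686 to 19922 and 17511 (1.72 ± 0.36 (SE)), and lost the call without 45 DAF replicate 1 (0.17), either 50 DAF array (0.163 and 0.0914) or either 25 DAF array (at most 0.0534).

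In 4 of the lists outside stress, falls outnumbered rises by a wide margin. Growth, cell wall and cytoskeleton genes had 24 falls and 8 rises of 53, photosynthesis genes 10 falls and 0 rises of 22, flavonoid and isoflavonoid enzymes 21 falls and 6 rises of 72, and aquaporins 11 falls and 0 rises of 45. GASA12, of a family of small gibberellin-regulated peptides, went from 39416 and 26936 to 97.9 and 250.5, a change of -7.20 ± 0.39 (SE) with adjusted p = 8.1e-05. ADR11, an auxin-down-regulated gene, fell from 25010.5 and 7906 to 160.2 and 402 (-5.29 ± 0.55 (SE)), and the tubulin matched to AT1G50010 from 4796 and 4044.9 to 324 and 294 (-3.33 ± 0.22 (SE)). Among enzymes of phenylpropanoid and isoflavonoid synthesis, 4CL1 fell from 1529 and 427 to 7.8 and 1.1 (-7.60 ± 0.65 (SE)) and chalcone isomerase CHI2-A from 1478 and 514 to 26.7 and 9.2 (-5.30 ± 0.41 (SE)). The 50 DAF signals of both enzymes were under 50, and their changes were -3.58 and -3.36 when 50 was added to every signal. The plasma membrane aquaporins PIP2-4 and PIP2-8 fell from 882 and 469 to 15 and 34.7 (-4.32 ± 0.45 (SE)) and from 14216 and 7848 to 1860.4 and 1618 (-2.11 ± 0.25 (SE)). The 50 DAF signals of PIP2-4 were also under 50, and its change was -2.81 with 50 added. CAB3, a light-harvesting chlorophyll-binding protein, fell from 13039.6 and 4136 to 193 and 188 (-4.77 ± 0.43 (SE)). The calls of these 8 genes held without each of the 4 arrays. Flavonoid falls numbered 12 without 45 DAF replicate 1 and flavonoid rises 10 without 45 DAF replicate 2 and 3 without 50 DAF replicate 1, and growth rises 4 and 5 without 50 DAF replicates 1 and 2.

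**Figure D5:**
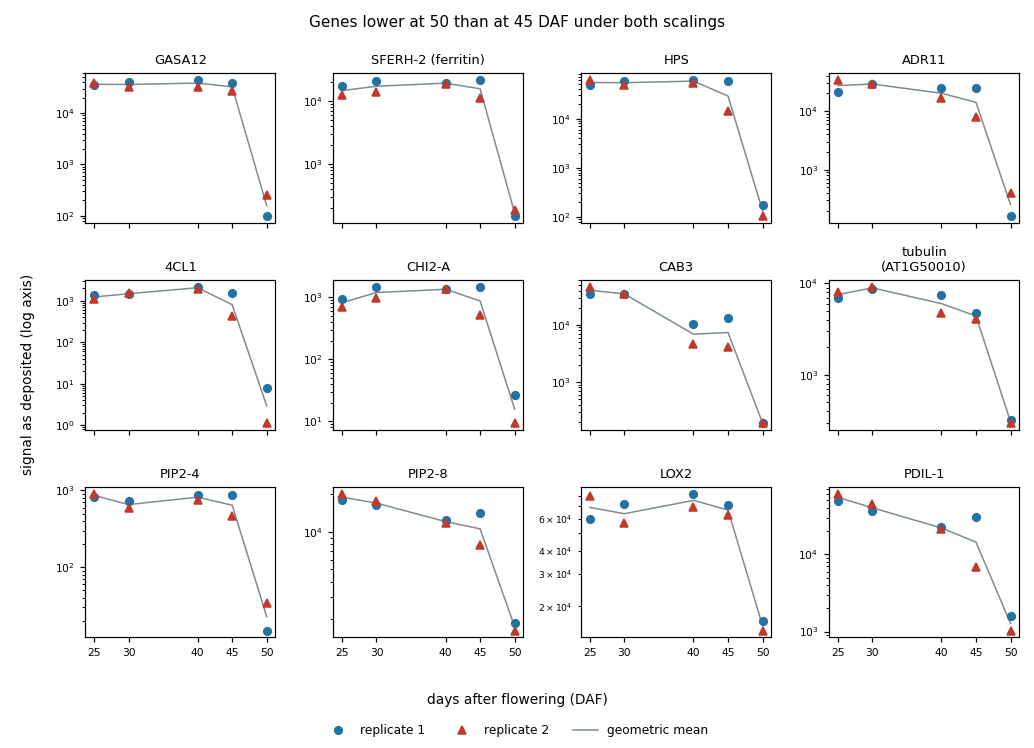
Signal as deposited on a log axis against age for 12 genes lower at 50 than at 45 DAF under both scalings, with circles for replicate 1, triangles for replicate 2 and a line through the geometric means. Both 50 DAF arrays lie below every other array in each panel (for example SFERH-2, 147 and 186), and replicate 2 at 45 DAF lies below replicate 1 in all panels.

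Markers of seed parts did not all move alike. Sums below are of signals as deposited. HPS, a hydrophobic protein of the seed coat surface, fell from 57219 and 14502 to 172 and 103, a change of -7.25 ± 0.43 (SE) with adjusted p = 9.78e-05. The summed signal of 4 seed coat markers (5 probe sets: HPS, SCB1, SSTP-1 and EP) was 85612 and 33959 at 45 DAF and 10175 and 9184 at 50 DAF, with 3 of 5 probe sets lower under both scalings. The only green-tissue marker matched, CAB3, summed to 35380.0 and 18335 over its 5 probe sets at 45 DAF and to 2554 and 3112 at 50 DAF. Of these probe sets 3 were lower under both scalings, and another was higher on centred signals only (1.34, adjusted p = 0.0347 by limma). The 6 seed storage markers that were matched summed to 391000 and 337970 at 45 DAF and to 267600 and 211660 at 50 DAF, and no marker was at 0. Of their 9 probe sets 1 was higher and 1 lower under both scalings, and the others did not pass under both. GY1, a glycinin and one of the main storage proteins, had signals from 64467 to 82205 on these 4 arrays in one probe set, and of 34210 and 27269 at 45 DAF and 20929 and 19237 at 50 DAF in the other, neither called. In whole seeds, fewer cells of a type and less RNA per cell cannot be told apart, and the part of the seed coat in the falls was not tested.

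Genes of reserve mobilisation and of sugar handling went both ways. The glyoxylate cycle list had 2 rises (28.6%) and 3 falls (42.9%) of 7. The sucrose and starch list had 5 rises (17.9%) and 9 falls (32.1%) of 28, beside 9.52% and 12.6% of all probe sets. The glyoxylate list had 1 rise and 1 fall without each 50 DAF array in turn and 1 rise without 45 DAF replicate 1. The sucrose and starch list had 3 rises without 50 DAF replicate 1, and 6 falls without 45 DAF replicate 1 or either 50 DAF array. GS1alpha, a cytosolic glutamine synthetase, had 154 and 11013 at 45 DAF and 36807 and 35619.9 at 50 DAF, a change of 5.30 ± 1.26 (SE) with adjusted p = 0.0123, while GS1-GAMMA fell from 1656 and 423 to 21 and 1.2 (-6.88 ± 0.85 (SE)), with 50 DAF signals under 50 and a change of -3.48 when 50 was added to every signal. MS, malate synthase of the glyoxylate cycle, had 134 and 1226 at 45 DAF and 10804 and 7601 at 50 DAF, a change of 4.98 ± 0.84 (SE) with adjusted p = 0.00282, and ICL1, isocitrate lyase of the same cycle, had 122 and 394 at 45 DAF and 791 and 1078 at 50 DAF (2.57 ± 0.67 (SE)). The 3 falls of that list were probe sets of MDH-1, a malate dehydrogenase, of which the one shown fell from 5274 and 2582 to 832 and 848 (-1.64 ± 0.31 (SE)). BMY1, a beta-amylase, rose from 1380.1 and 2978 to 12172 and 18050.1 (3.37 ± 0.34 (SE)), and GBSSIa, a granule-bound starch synthase, fell from 3945 and 2504.7 to 202 and 349 (-3.06 ± 0.29 (SE)). The sugar transporter SWEET31 rose from 193 and 1861 to 5573 and 8035 (3.98 ± 0.73 (SE)), and SWEET24 fell from 21125 and 9072 to 1741 and 1979.8 (-2.40 ± 0.32 (SE)). SGR1, a stay-green protein of chlorophyll breakdown, rose from 975 and 4324 to 9425 and 10015 (2.74 ± 0.52 (SE)). ATG3A, an autophagy enzyme, rose from 2054 and 2796 to 4970.3 and 5308 (1.60 ± 0.21 (SE)). Without 50 DAF replicate 1 the calls of GS1alpha (0.152), SWEET31 (0.0557) and SGR1 (0.0813) were lost. ICL1 lost its call without 45 DAF replicate 1 (0.308), either 50 DAF array (0.125 and 0.203), and either array at 25 or 40 DAF (at most 0.0654), whereas the calls of the other 7 genes, for MDH-1 of the probe set shown, held without each of the 4 arrays.

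Several large rises came from genes in which replicate 2 at 45 DAF was not clearly above replicate 1, and in which both 50 DAF arrays lay above all other arrays. The hemoglobin matched to AT2G16060, the Arabidopsis class 1 hemoglobin known to scavenge nitric oxide, had 423 and 243 at 45 DAF and 22887 and 25166 at 50 DAF, a change of 6.73 ± 0.48 (SE) with adjusted p = 0.000142. MMP2, a matrix metalloproteinase, had 140.5 and 26.9 at 45 DAF and 1822 and 2339 at 50 DAF, a change of 5.57 ± 0.66 (SE) with adjusted p = 0.000711. The aspartyl protease matched to AT1G03220 went from 45.6 and 41.7 to 3246 and 4922 (7.02 ± 0.72 (SE)), and the histone H1 matched to AT2G18050, whose Arabidopsis counterpart is induced by drought, from 2807 and 2848 to 13209 and 14029.6 (2.77 ± 0.26 (SE)). All 4 calls held without each of the 4 arrays.

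To ask where the last step differed from the one before it, the change from 45 to 50 DAF was set against that from 40 to 45 DAF in 1 contrast. The steps share the 45 DAF arrays. From 40 to 45 DAF, 0 probe sets were called by limma (1096 at an unadjusted p under 0.05). The difference between the steps was called for 161 probe sets in the upward and 308 in the downward direction under both scalings, 0.428% and 0.819% of all probe sets and 1.25% together. Among stress-list genes, the step difference of the thioredoxin matched to AT5G61440 was 5.45 (adjusted p = 0.0359), that of GSTU37 was 2.90 (0.0174), that of ETR2 was 2.48 (0.0311) and that of SFERH-2 was -5.80 (0.00591). For HSP17.5-E it was 0.0868, for DREB2A2 0.26 and for GOLS 0.196 in adjusted p, so that the steps were not shown to differ for these genes. On centred signals 227 probe sets were called upward and 308 (0.819%) downward, 1.42% together, and as deposited 754 (2.01%) were called downward. On centred signals without 45 DAF replicate 2 the numbers were 3393 and 2200, and without replicate 1 they were 133 and 70.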

How the data were processed

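The deposited values are intensity signals, 1 per probe set and array, which the authors made with Microarray Suite 5.0 (MAS5) and scaled globally to a common mean. Detection calls, probe-level files and sequences were not used here. Signals were log2-transformed, either centred on each array's median, as in the methods, or as deposited. limma 3.58.1 in R 4.3.3 fitted time point and replicate number to all 10 arrays (4 residual degrees of freedom) with a variance trend, and p-values were adjusted by Benjamini-Hochberg over 37593 probe sets. The adjusted p printed after an array is left out is the larger of the 2 scalings. Because 2 arrays a group limit the precision, the spread is shared over all ages, and p-values measure the spread between pooled samples. The median SD of replicates was 0.42 at 45 DAF and 0.23 to 0.26 at the other ages. A shared spread can therefore lie below that of the 45 DAF pair, and SEs, intervals and adjusted p of changes from 45 DAF can be too small. The fit was also run on simulated data with known changes, in which all arrays had the same spread per probe set. That simulation cannot show how the fit handles the wider spread of the 45 DAF pair.

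Symbols came from GEO's platform annotation, updated through RefSeq: 8677 probe sets had 1 symbol, 370 several and 28546 none. Family names came from the study's table of transcripts matched to Arabidopsis. Genes were named by a rule. From probe sets with an informative or family name, the 15 largest rises and 15 largest falls called under both scalings were taken. These had the same direction in both replicate numbers and a higher group mean at or above the array median. At most 5 genes per list were added in order of adjusted p, and at most 10 stress genes called under 1 scaling or turning sign. Each gene is shown by 1 probe set. The probe sets of EBP, MMP2, DREB1, NAC14, NAC27, NAC69, SPK-4, ERD15, NHX1, ICL1, PIP2-4, PDIL-1, BZIP70, KTI-2, KTI-3, PM12, WIN and the hemoglobin, and more so those of CAB3, ADR11, PDIL-2 and histone H1, are marked by the array's design as able to match several transcripts. The comparison, lists and named genes were chosen with earlier results of these data known. Alternatives were quantile normalization, a pseudocount of 50, a filter on low signal, an adjusted p under 0.01, fits without the block, the trend or moderation, the 4 arrays alone, and each array left out.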

Additional observations from a re-analysis of the deposited data

Results flagged for a closer look

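The change from 45 to 50 DAF differed from the change from 40 to 45 DAF in 469 probe sets under both scalings, by limma's test of the difference between the steps (adjusted p under 0.05 on centred signals and as deposited). An upward example is EBP (1502 and 281 at 40 DAF, 494 and 274 at 45 DAF and 14519 and 13032 at 50 DAF), with 6.51 and adjusted p = 0.0141, and a downward example is GASA12 (45101 and 32969 at 40 DAF, 39416 and 26936 at 45 DAF and 97.9 and 250.5 at 50 DAF), with -6.99 and adjusted p = 0.0114. The same 45 DAF arrays enter both steps with opposite signs, and 45 DAF replicate 2 lay nearer to the 50 DAF arrays than replicate 1 did. On centred signals the counts were 227 upward and 308 downward with all arrays, 133 and 70 without 45 DAF replicate 1, and 3393 and 2200 without replicate 2.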

How the results depend on the processing

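With each array left out in turn, the rises on centred signals (6994) ranged from 2738 to 7624 and the falls (4749) from 2908 to 5569, while calls under both scalings ranged from 1092 to 4863 for rises (3577) and from 2908 to 5569 for falls (4749). Stress list rises (142) ranged from 54 to 192 and falls (100) from 55 to 108. All these ranges ran from the fit without 50 DAF replicate 1 to that without 45 DAF replicate 2. The step difference (227 upward, 308 downward) ranged from 9 to 3393 and from 16 to 2200, the lowest without either 25 DAF array and the highest without 45 DAF replicate 2. When 1 array was left out, its lone partner was assumed to vary like the other pairs.

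At an adjusted p under 0.01 the centred rises and falls were 3657 and 2605, those under both scalings 1473 and 2605, those of the stress lists 64 and 54, and those of the step difference 1 and 4. Without moderation of the variance, the ordinary linear model of the methods, they were 3474 and 2248, 1304 and 2248, 53 and 44, and 0 and 0. Without the variance trend the rises under both scalings were 1935, the stress list calls 79 and 65, and the step difference 0 and 0. As deposited there were 3577 rises, 7845 falls and 754 downward step differences. With only the 4 arrays at 45 and 50 DAF there were 4269 rises and 2168 falls on centred signals, 2168 falls under both scalings, 46 falls in the stress lists, and the step difference could not be had. Quantile normalization gave 3743 centred rises and 95 upward step differences, and leaving out probe sets of low signal gave 377. The cause of these shifts was not tested.

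Same-numbered replicates shared only a number: correlations of replicate differences ran from -0.034 to 0.030 over 10 pairs of time points. With no replicate block the centred rises and falls were 7337 and 4957, those under both scalings 3833 and 4957, the stress list calls 147 and 105, and the step difference 431 and 464.

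For the 129 genes chosen by the naming rule, 2212 alternative values kept the direction and the side of the threshold, 221 kept the direction but missed the threshold, and those that turned the sign were both of LOX3 (-0.28 as deposited and -0.20 after quantile normalization). MAS 5.0 signals carry no detection call here, so that values under about 50 have no sure order.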

Other observations

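Proteins of storage and protection against digestion differed gene by gene. Protease inhibitors had 0 rises and 3 falls (27.3%) of 11 probe sets, beside 9.52% and 12.6% of all probe sets. KTI-3, a Kunitz-type trypsin inhibitor, had 12752 and 4446 at 45 DAF and 349.5 and 615 at 50 DAF, a change of -3.52 ± 0.45 (SE) with adjusted p = 0.000913 by limma, and KTI-2 had 20419 and 15156 at 45 DAF and 4583 and 4749 at 50 DAF, a change of -1.42 ± 0.23 (SE). In KTI-3 and KTI-2 both 50 DAF arrays lay below both 45 DAF arrays. Another probe set, named KTI3, had higher signals, 65200 and 61055 at 45 DAF and 50190.5 and 44318 at 50 DAF. It was not called, with changes of 0.08 centred and -0.42 as deposited (adjusted p = 0.848 and 0.275 by limma). Storage and oil body proteins had 1 rise and 1 fall of 15 (6.67% each). The fall was GY3, a glycinin subunit, with 34662 and 7839 at 45 DAF and 1699.9 and 535 at 50 DAF and a change of -3.61 ± 0.57 (SE). The rise was a CG-1 conglycinin probe set of modest signal, with 553 and 1276 at 45 DAF and 1966 and 1916 at 50 DAF and a change of 1.71 ± 0.38 (SE), whose adjusted p was 0.238 without 45 DAF replicate 1 and 0.216 and 0.0827 without 50 DAF replicates 1 and 2.

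The stay-green genes of chlorophyll breakdown, 3 probe sets, did not share a direction. SGR1 rose, as given above, while SGR had 1772 and 1671 at 45 DAF and 665 and 751 at 50 DAF, a change of -0.78 ± 0.20 (SE) with adjusted p = 0.0161 by limma, and lost its call without 45 DAF replicate 1 (0.0608) or either 50 DAF array (0.093 and 0.0692). SGR2 had 915 and 5491 at 45 DAF and 6367 and 6741 at 50 DAF, a change of 2.05 centred (adjusted p = 0.0402) and 1.55 as deposited (0.0999). Histone H3 matched to AT5G10980 rose from 2757 and 2325 to 6349 and 6067 (1.79 ± 0.18 (SE)), and the phospholipase matched to AT1G73480 from 40.4 and 34.7 to 1686 and 1372 (5.84 ± 0.70 (SE)).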
